A study of Mus musculus with 12 samples.

Results

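The list of m6A peaks from wild-type (WT) BV2 cells treated with bacterial lipopolysaccharide (LPS) held 36682 peaks on 13370 genes, out of 77835 peaks deposited for both genotypes of the series. Every row of that list was taken, whatever its strength. BV2 is an immortalised line of mouse microglia, the resident immune cells of the brain, and LPS is a bacterial cell wall product used to activate such cells. The list rests on 3 libraries of RNA pulled down with an antibody against m6A (IP) and 3 input libraries of the same cells, genotype WT, titled with LPS. The remaining 41153 peaks came from 3 IP and 3 input libraries of LPS-treated BV2 cells labelled Mettl3 KO, and LPS is therefore common to both genotypes. The labels name neither the LPS dose and time nor whether replicates were separate cultures, and the extraction text speaks of neuroblastoma cells where the sample labels say BV2 microglial cells. A single line grown in culture stands for microglia here. The series text asks which transcripts link METTL3 to what microglia do after stimulation.

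N6-methyladenosine, or m6A, is a methyl group on adenosines inside messenger RNA. A complex of METTL3, METTL14 and WTAP with several adaptor proteins places it, the demethylases FTO and ALKBH5 can remove it, and YTH domain proteins bind it and steer the transcript towards splicing, translation or decay. The mark is known to gather near stop codons and in 3′ untranslated regions (UTRs), at adenosines set between a purine and a cytosine. In macrophages and microglia it has been studied mainly for how long inflammatory transcripts last.

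Each peak carried 1 enrichment, the log2 ratio of IP over input, with an adjusted p; both are the authors' own values. Only 1 list exists for the group, so there was no spread between libraries and no test between libraries could be made. Depth per library is unknown. Intervals below are 95% intervals that cover the counting of peaks or genes only. A gene is described by its strongest peak. The ratio describes how far a stretch of transcript was enriched by the antibody, not how much of the transcript there was.

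Sequence at the edge of a peak could be shown where a 5′ UTR peak began on the exact base at which RefSeq (GRCm38.p6) starts a transcript. This held for 288 peaks. The first 50 bases of those transcripts were searched on the transcript strand alone for the 12 pentamers of the m6A consensus, in which the bases 1 and 2 are purines, base 3 is adenine, base 4 cytosine and base 5 anything but guanine, as in GGACT. Overlapping matches were counted. The lines below show the first match in the 6 strongest such peaks that held a pentamer and lay on a gene with a name other than a Gm or Rik symbol, off chromosomes 8 and 18, to let the consensus be seen in its setting. The consensus is in capitals, with up to 10 bases on either side, 5′ to 3′, and its base 3 is the adenosine that could carry the methyl group.
Bhlha9 (chr11:76672483-76672507, plus strand): atcagtcagtGGACCagcagccttt
Mdfi (chr17:47834671-47834691, minus strand): aaggagAGACTggggagctgc
Smad3 (chr9:63757970-63757994, minus strand): ggcggcacccAAACAgctaccccgt
Gpatch2l (chr12:86241858-86241872, plus strand): AGACCggaaatgagg
Plekha4 (chr7:45526330-45526352, plus strand): acaacactGAACTtctcgcggag
Map3k6 (chr4:133240841-133240865, plus strand): tgacttcccaGGACTcttctgtgac

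Bhlha9, which encodes a basic helix-loop-helix transcription factor, had a 5′ UTR peak at a log2 of 6.77, the strongest of its region. Smad3, a signal carrier of TGF-beta receptors, stood at 2.83, and Map3k6, a kinase of the stress-activated cascade, at 2.62. Mdfi stood at 2.86, Gpatch2l at 2.75 and Plekha4 at 2.69. The Bhlha9 peak spanned 300 bases of the genome, while the others spanned from 2136 (Map3k6) to 15251 (Gpatch2l). For those the printed bases lie at 1 edge of a long peak. These matches are a description and do not place the methyl group. Such pentamers are common: 33.3% of the 288 windows held at least 1 (95% Wilson interval 28.1 to 39.0), against 44.6% of all 32817 RefSeq start windows and 36.7% of the 12278 windows of genes with a WT peak. Median GC content of the windows was 66%, 56% and 64% in the same order. The most favoured form, GGACT, was in 4.51% of the 288 windows, 5.76% of all windows and 5.17% of the windows of genes with a peak. The first base of the transcript was A in 27.4% of the 288 (22.6 to 32.9), in 34.4% of all windows and in 29.0% of those of genes with a peak. The windows at these peaks were therefore not richer in the pentamers than start windows at large. Peaks elsewhere on the transcript were not searched.

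The first question was where on the transcript the mark lay. The 3′ UTR held 53.02% of the peaks (52.5 to 53.5), protein-coding exons 21.1%, the 5′ UTR 11.9%, exons of noncoding RNAs 8.15% and introns 5.58%. Counted by gene, 79.8% had a peak in the 3′ UTR, 33.4% in a coding exon and 29.2% in the 5′ UTR. The annotation gives each peak 1 region, although a peak's genomic span can cross introns and several exons: the median span was 573 bases and 40.1% exceeded 1000.

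Strength followed another order. The median log2 was 1.26 for noncoding exons, 0.95 for the 5′ UTR, 0.86 for the 3′ UTR, 0.75 for introns and 0.67 for coding exons, against 0.83 over all peaks. Their 95% intervals did not overlap, with 1.22 to 1.30 for noncoding exons, 0.94 to 0.97 for the 5′ UTR, 0.85 to 0.87 for the 3′ UTR, 0.73 to 0.76 for introns and 0.66 to 0.67 for coding exons. An enrichment of 4-fold or more, used below as the mark of a strong peak, was met by 4307 peaks, or 11.7% of the list. The share was 25.9% in noncoding exons, 12.8% in the 3′ UTR, 11.9% in the 5′ UTR, 5.32% in coding exons and 5.18% in introns. The 3′ UTR supplied 57.8% of all strong peaks.

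Span moved with strength. Among 3′ UTR peaks of at most 1000 bases the median log2 was 0.75 and 3.68% were strong, while among longer ones the median was 1.43 and 30.1% were strong. The 5′ UTR went from 6.41% to 16.3% and noncoding exons from 20.05% to 39.4%. Coding exons hardly differed by span, with 4.66% of the short and 5.77% of the long peaks strong. Noncoding exons had the highest share among short peaks and among long ones. The part of span in the regional order was not tested further.

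**Figure D1:**
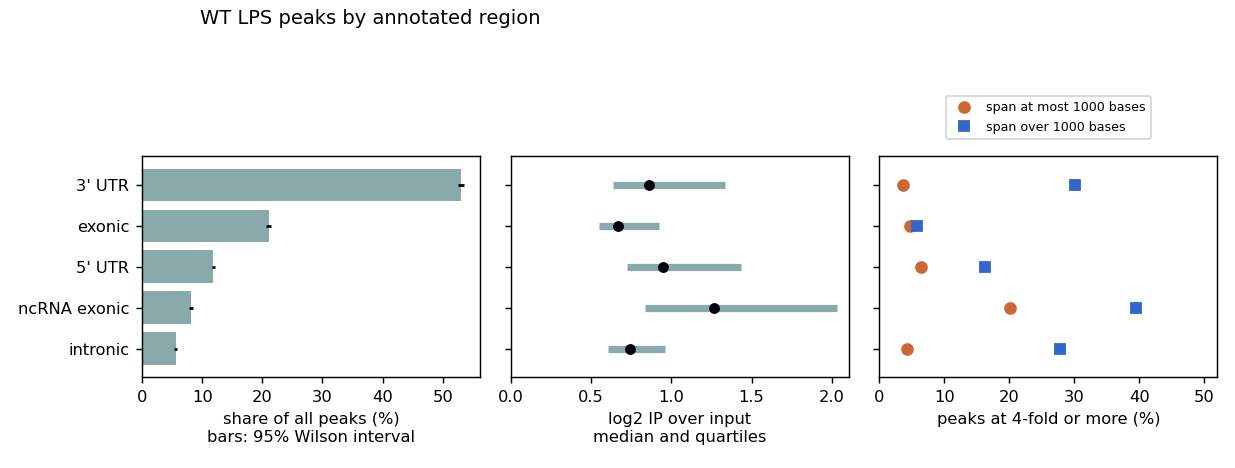
Share of all WT LPS peaks (left, percent, with 95% Wilson interval), log2 IP over input (middle, median and quartiles) and share of peaks at 4-fold or more (right, percent) for the 5 commonest annotated regions, the right panel split by genomic span. The 3′ UTR holds most peaks, at 53.02%, noncoding exons have the highest median, at 1.26, and 3′ UTR peaks over 1000 bases are strong in 30.1% of cases against 3.68% of shorter ones.

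Position along the gene followed the annotated regions, largely by construction, since a region label depends on where in the gene a peak lies. Short 3′ UTR peaks had their midpoint at 97.6% of the gene's span in the median, and 78.8% of them lay in the last 10% of the gene. Short 5′ UTR peaks lay at 2.42%, with 74.6% in the first 10%. Short peaks in coding exons were spread along the gene, with a median at 64.6%, and short intronic peaks had theirs at 57.6%. Many peaks reached the annotated end of the gene: 39.9% of 3′ UTR peaks ended within 100 bases of it or beyond it. On that very base or beyond it ended 30.2%. Peaks ending within 100 bases or beyond had a median log2 of 0.95, against 0.78 for other 3′ UTR peaks. Strong peaks were about as common in both, at 13.1% and 12.6%. At the other end, 52.4% of 5′ UTR peaks began within 100 bases of the gene start or before it. A small set of 205 peaks annotated to the 3′ UTR reached back to the first base of the gene or beyond it. Their median log2 was 2.27 and 60.5% were strong. Their median span was 4303 bases, against 475 for the other 3′ UTR peaks, and the part of span was not tested.

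**Figure D2:**
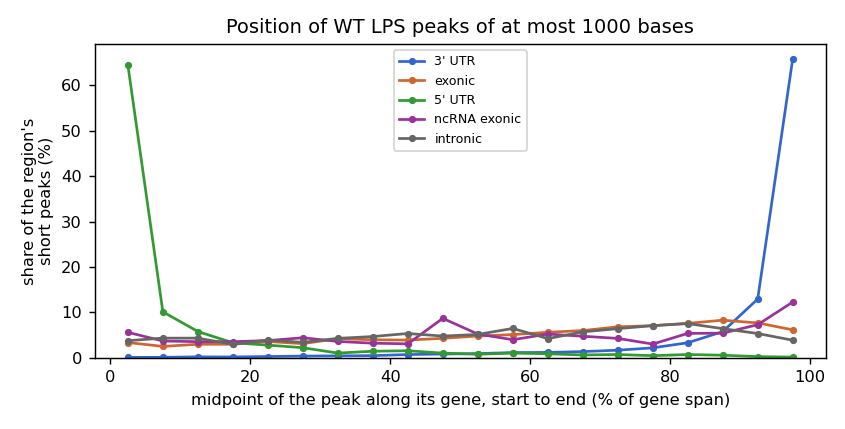
Midpoint of peaks of at most 1000 bases along their gene, from start (0%) to end (100%), as the share of each region's short peaks in each bin of gene span (percent, 1 line per annotated region). Short 3′ UTR peaks pile up at the gene end, with a median of 97.6%, and short 5′ UTR peaks at the gene start, with a median of 2.42%, while peaks in coding exons and introns are spread out.

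Most genes carried few peaks. A single peak was found on 32.2% of genes, the median was 2 and the mean 2.74. The 118 genes with 10 or more peaks spanned 119278 bases of the genome in the median and had a median strongest log2 of 2.13, against 1.26 for genes with a single peak. A maximum over more peaks is higher by its construction: the median of the mean log2 over a gene's peaks went the other way, 0.90 against 1.26. Dst, which encodes the cytoskeletal linker dystonin, had the most, with 26 peaks, of which 20 lay in coding exons with log2 values from 0.44 to 2.24. Its strongest was a 3′ UTR peak at 3.10. Macf1, a related linker of microtubules and actin, had 18 peaks, 12 of them in coding exons. Its strongest lay in the 5′ UTR at 5.46, while both of its 3′ UTR peaks were below 0.64. Galnt2l, a model that spans 4434882 bases, had 16 peaks, all annotated as intronic, and Ankrd17 and the kinase gene Wnk1 had 15 each. Wnk1 reached 1.92 at most, so many peaks on a gene did not always come with a strong one.

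Peaks within 1 gene could be compared with each other, since they share the gene and the libraries. They need not lie on the same transcript of that gene, and this was not tested. For each region the gene's strongest peak was used. Among 4131 genes with a peak in the 3′ UTR and in a coding exon, the 3′ UTR peak was the stronger in 76.0% (74.7 to 77.3), by a median of 0.32 on the log2 scale. Against the 5′ UTR the 3′ UTR was the stronger in 58.3% of 3687 genes (56.7 to 59.8), by a median of 0.13. The 5′ UTR in turn exceeded the coding exons in 72.6% of 1674 genes (70.5 to 74.7). A maximum over more peaks is higher by its construction. The 3′ UTR had 19450 peaks on 10673 genes, the 5′ UTR 4359 on 3902. Over single peaks the order of the UTRs was the other way, with medians of 0.86 for the 3′ UTR and 0.95 for the 5′ UTR. The part of peak number in the comparison within genes was not tested. Strong peaks were found at either end: 737 of these 3687 genes had a strong 3′ UTR peak, 450 a strong 5′ UTR peak and 141 both. By combination, 4017 genes had peaks in the 3′ UTR alone, 2083 in the 3′ UTR and coding exons, 1841 in both UTRs and 147 in the 5′ UTR alone.

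At the level of genes, 3738 of 13370 had a strongest peak at 4-fold or more, a share of 28.0% that serves as the background for every gene group below. It is a share of genes with a peak. The share of all annotated genes that had a peak was not computed, so counts of members with a peak have no background. The median gene reached a log2 of 1.36 (quartiles 0.93 and 2.10). The 10 highest genes were Alb, Ttr, Gm7292, Gm47063, Gm14296, Cyp2e1, Gc, Olfr1238, Lrfn2 and Tenm4. Alb, the gene of serum albumin, stood at 8.45 with an adjusted p of 8.29e-24, its peak running from 90462619 to 90476602 on chromosome 5. Ttr, which encodes the thyroid hormone carrier transthyretin, stood at 7.99 with 2.40e-11. Cyp2e1, a cytochrome P450 of the liver, stood at 7.51 and Gc, the vitamin D binding protein, at 7.42. Olfr1238, an olfactory receptor gene, stood at 7.37, Lrfn2, a synaptic adhesion protein, at 7.32 and Tenm4, a teneurin of neurons, at 7.18. None of the 10 is among the 20 microglial markers given further on.

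These extremes were not the peaks with the smallest p. The 28 peaks with a log2 above 6 had a median adjusted p of 1.03e-09, while the 992 peaks between 3 and 4 had a median of 1.84e-211. The 2502 peaks whose adjusted p was listed as 0 included none above 6. Peaks above 6 had a median span of 340 bases and those between 3 and 4 one of 2405. By region, the highest named genes were Bhlha9, Pkp4 (6.48) and Fam110c (5.93) in the 5′ UTR, Zxda (6.49) and Bloc1s6os (5.33) in noncoding exons, and Vti1a (5.14) and Dcun1d2 (4.71) in introns. In the 3′ UTR, Jsrp1 (6.53) and the ganglioside synthase gene St8sia1 (6.21) followed the genes above.

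**Figure D3:**
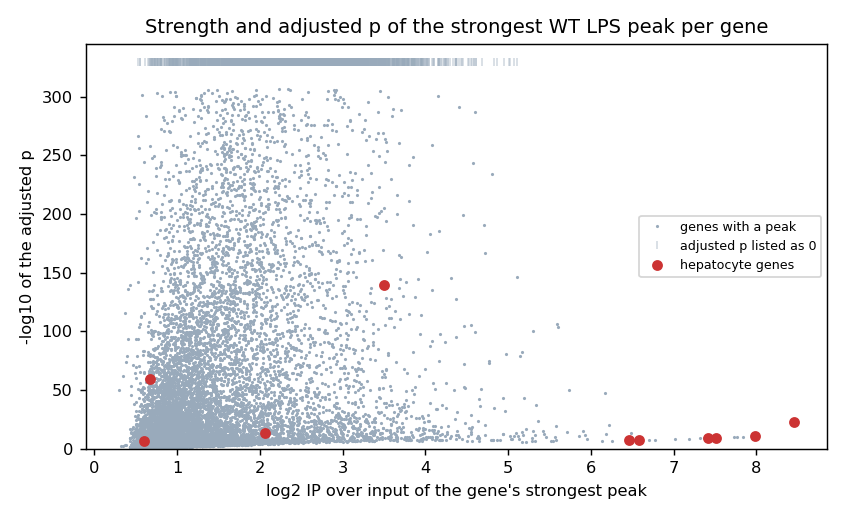
Log2 IP over input of each gene's strongest peak (x axis) against −log10 of its deposited adjusted p (y axis), 1 point per gene, with adjusted p values listed as 0 drawn as ticks along the top and genes of a hepatocyte list in red. The strongest genes, such as Alb at 8.45, sit near the bottom, while the ticks along the top lie at lower log2 values.

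Genes whose products switch transcription on and off had the highest medians among the gene groups examined. Of 26 immediate-early genes, which respond within minutes to a stimulus and mostly encode transcription factors, 24 had a peak and 15 a strong one, with a median of 2.23 (1.77 to 3.02) against 1.36 over all genes. Fosb led at 5.32, in its 5′ UTR, followed by Jun at 4.61, Myc at 4.36 and Ier5 at 3.45, all in the 3′ UTR. Members were far from alike: Btg2 stood at 1.18 and Fosl1 at 1.04, and Egr1 and Nr4a3 had no peak. Batf, the AP-1 family factor that the series text singles out from these libraries, stood at 2.92, below the leading AP-1 genes Fosb and Jun.

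Zinc-finger genes named Zfp formed the largest strong group. Of 400 listed, 314 had a peak and 188 of these (59.9%) a strong one, with a median of 2.16 (2.05 to 2.25). Zfp354c led at 6.54, though with an adjusted p of 4.61e-08 and 1 peak of 300 bases, and Zfp663 (3.99), Zfp503 (3.95) and Zfp563 (3.85) came next. The lowest were Zfp58 at 0.59 and Zfp969 at 0.52. Among the 314, the strongest peak lay in the 3′ UTR for 214 and in a coding exon for 65. Span moved with this value: over peaks of at most 1000 bases alone, the median lay only 0.10 above that of all genes, in place of 0.80. For the immediate-early genes the same step gave 0.24 in place of 0.87.

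All 24 histone lysine methyltransferases, enzymes that write chromatin marks, had a peak, and 8 had a strong one, with a median of 1.88. Nsd1 (3.68, 5′ UTR), Kmt5b (3.56), Setd5 (2.91) and Ash1l (2.64) led, and Suv39h1 (0.94) and Ezh1 (0.81) were lowest. They carried 6.96 peaks per gene on average, against 2.74 over all genes. Measured against genes with the same number of peaks their median was 0.18 higher, and over short peaks it was 0.08 below that of all genes.

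Genes of the m6A machinery were looked at in 2 small groups. Their shares of strong genes lay on either side of the 28.0% of all genes, but both medians lay above the 1.36 of all genes. All 12 writer genes had a peak and 5 (41.7%) a strong one, with a median of 1.71. The adaptors Rbm15b (3.38) and Rbm15 (3.10), which recruit the complex to its targets, led, followed by Wtap (2.21), the regulatory subunit, and Cbll1 (2.14). Mettl16 (1.11), which methylates structured RNAs, and Mettl14 (0.82), the partner of METTL3 in the catalytic core, were lowest. Of 17 reader and eraser genes 16 had a peak and 3 (18.8%) a strong one: the readers Ythdf3 (2.97), Ythdc1 (2.73) and Ythdf2 (2.58). The median of the 16 was 1.52, with an interval from 0.81 to 1.78 that held the 1.36 of all genes. Prrc2a, at 1.78, fell short of 4-fold. The eraser gene Alkbh5 stood at 0.70 and the reader gene Hnrnpc at 0.64.

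Genes that sense LPS and genes that LPS is known to induce were looked at apart. Of 32 genes of LPS sensing and NF-kB signalling, 31 had a peak and 9 (29.0%) a strong one, near the 28.0% of all genes, with a median of 1.45. Tlr4, the LPS receptor, led at 3.87, followed by Tab2 (3.26) and Tab1 (3.25), which activate the kinase TAK1, and by Tnfaip3 (3.21), the A20 protein that ends NF-kB signalling. The adaptor Myd88 stood at 0.75 and the inhibitor Nfkbib at 0.67, and the co-receptor Ly96 had no peak. Of 27 LPS-induced cytokine and chemokine genes, 18 had a peak and 2 of these (11.1%) a strong one, with a median of 0.92 (0.79 to 1.20). The strong ones were the growth factor Csf1 (2.90) and Lif (2.47). Osm stood at 1.89 and Csf2 at 1.46, while the chemokine Ccl5 stood at 0.57 and Il1a at 0.55. Il10, Il12a, Il12b, Il27, Ifnb1, Ccl4, Cxcl1, Cxcl3 and Cxcl16 had none. Of 30 interferon-induced genes 26 had a peak and 6 a strong one, with a median of 1.32 close to that of all genes. Gbp7 (3.38), Ifit2 (2.85), Cmpk2 (2.69) and the ubiquitin-like modifier Isg15 (2.54) were the highest, and Usp18 (0.79) and Oas2 (0.75) the lowest. Input levels per gene were not used here, so the part of expression in the absence of a peak was not tested.

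Most housekeeping genes had a peak, but mostly one of low enrichment. Input levels per gene were not used, so the part of expression in these low values was not tested. None of the 38 genes of the proteasome subunit list with a peak reached 4-fold, and their median was 0.92. Psmd1 was the highest, at 1.94, and Psmd14 (0.58) and Psmd9 (0.48) the lowest. Genes of the respiratory chain and ATP synthase were listed by the start of their symbol, which also takes in assembly factors. Of these 92 genes 4 were strong, with a median of 0.93, led by the assembly factor gene Sdhaf2 (2.33) and by Ndufb2 (2.17). Of 78 cytosolic ribosomal protein genes 4 were strong, with a median of 0.998, and Rpl7a stood out at 3.63 above Rps10 at 2.76 and Rpl18 at 2.24. Rplp0, at the other end, stood at 0.47 with an adjusted p of 2.62e-232, so a weak enrichment could come with a very small p. Ribosomal protein genes have many near-identical pseudogenes, between which reads can be split. Of 77 mitochondrial ribosomal protein genes 8 were strong, with a median of 1.04 and Mrpl41 first at 3.61. Lysosomal genes had 1 strong member in 25 (Cd63, 2.49) and a median of 0.91. Of 18 glycolytic genes Aldoa (3.19) and Pfkfb4 (2.70) were strong, and the median was 1.11. Eno1, an enzyme of the same pathway, had among the weakest values of the list, at 0.37. Over short peaks alone these 6 groups lay 0.05 to 0.17 below the median of all genes, in place of 0.25 to 0.45.

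**Figure D4:**
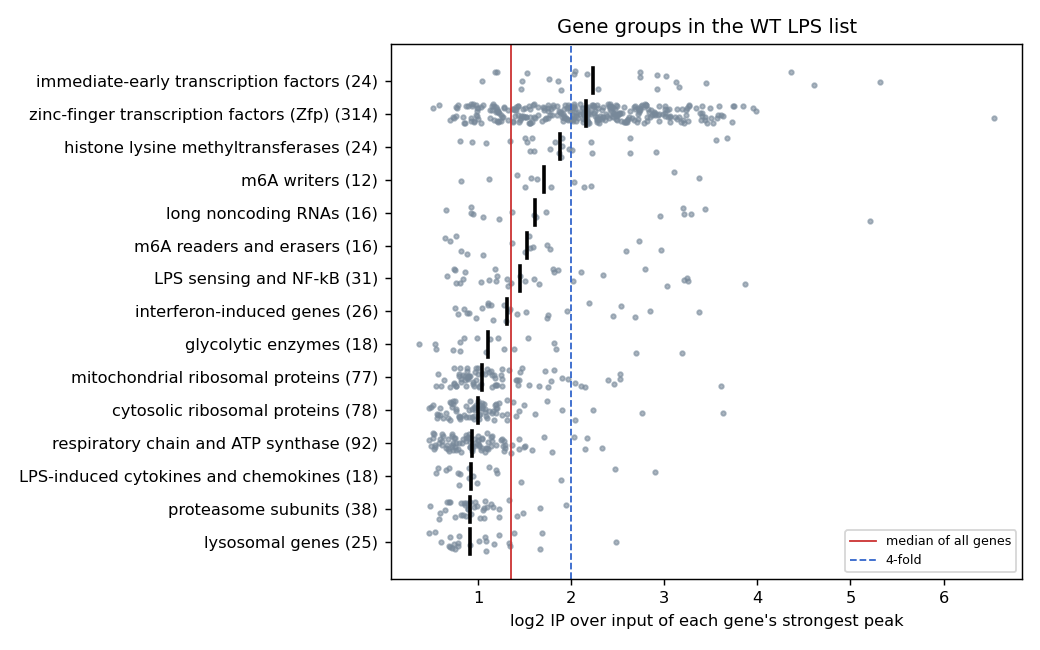
Log2 IP over input of the strongest peak for every member with a peak in the 15 gene groups (1 point per gene, jittered vertically, the number of genes in parentheses, black bar the group median), with the median of all genes (red) and 4-fold (dashed blue). Immediate-early and Zfp genes have their medians at 2.23 and 2.16, above the 4-fold line, while none of the 38 genes of the proteasome subunit list reaches it.

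The list names KEGG pathways for 4581 genes, of which 23.5% were strong, with a median of 1.23. There were 211 pathways with 30 genes or more, their medians ran from 0.92 to 2.54, and the 95% interval of the median lay wholly above 1.23 for 21 and wholly below for 28. A pathway is named here as the file names it and its genes are often shared: Jun, Myc, Hras and Tlr4 each led several. The part of expression in the order of pathways was not tested.

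The highest median belonged to neuroactive ligand-receptor interaction, a catalogue of receptors for transmitters and hormones, at 2.54 (2.04 to 2.80), with 37 of 56 genes (66.1%) strong. It was led by the galanin receptor genes Galr1 (5.22) and Galr2 (4.64), the parathyroid hormone receptor Pth1r (5.09) and the adrenergic receptor Adrb1 (4.55). The purinergic channel P2rx3 stood at 0.83 and the thyroid hormone receptor Thra at 0.78. It kept a difference of 0.67 from all pathway genes over short peaks, where the difference was 1.30 over all peaks. Herpes simplex virus 1 infection came second, at 1.88, with 325 genes. That name covers many zinc-finger genes: 161 of the 325 were named Zfp, with a median of 2.19, while the other 164 had 1.46.

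Fanconi anemia, the repair pathway for DNA crosslinks, had a median of 1.80, with the topoisomerase gene Top3a at 3.94 and the deubiquitinase Usp1 at 3.71. Axon guidance had 1.79, led by Wnt5b at 4.67, Hras at 3.94 and the semaphorin gene Sema6c at 3.90. In Jak-STAT signalling, the relay from cytokine receptors to the nucleus, 42 of 89 genes (47.2%) were strong, with a median of 1.76 (1.43 to 2.19). Its leaders were the receptor chains Il20rb (4.60) and Il21r (4.17), Myc, and Socs6 (4.01) of the family of signalling suppressors, while Stam2 stood at 0.52. Bladder cancer, with 33 genes and a median of 1.75, had an interval from 1.20 to 2.36 that held the median of all pathway genes.

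Besides Jak-STAT signalling, several pathways of immune sensing were described. NF-kappa B signalling stood at 1.69 (1.32 to 1.88), with 26 of 78 genes strong. Ltbr, the lymphotoxin receptor, led at 4.16, then Tlr4, the adaptor Traf1 (3.58) and the RANK receptor gene Tnfrsf11a (3.49), and Lck (0.72) and Blnk (0.62), known from lymphocytes, were lowest. TNF signalling stood at 1.47 with 29 of 92 genes strong, among them Bag4 (4.20) and the bacterial sensor Nod2 (3.61). Cytokine-cytokine receptor interaction had the same median and 36 of 106 strong, led by Il20rb, the fractalkine receptor Cx3cr1 (4.59), Tnfsf9 (4.58) and Tnfsf15 (4.37). Toll-like receptor signalling had 1.46, but 17 of 74 strong genes, 23.0%, matched the background of 23.5%. RIG-I-like receptor signalling (1.30), NOD-like receptor signalling (1.21), Fc gamma R-mediated phagocytosis (1.20) and chemokine signalling (1.18) had intervals that held 1.23. Cytosolic DNA sensing stood at 1.14 with 4 of 41 genes strong, led by Aim2 (2.69) and Irf3 (2.30). Antigen processing and presentation stood at 1.13, led by H2-Q4 (3.63), one of a family of near-identical genes whose reads may be split. Over short peaks the TNF and Toll-like receptor medians dropped slightly below that of all pathway genes.

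Growth pathways lay in between. MAPK signalling had a median of 1.45 (1.33 to 1.70), PI3K-Akt signalling 1.52 and TGF-beta signalling 1.62, the last with Acvr2a (4.29), Rps6kb1 (3.66) and Ep300 (3.08) behind Myc and Tgfbr1 lowest at 0.54. Over short peaks the TGF-beta median lay slightly below that of all pathway genes (-0.032). Wnt signalling stood at 1.48, with Fzd4 at 4.39, and Notch signalling at 1.44, with Maml2 at 3.80. In mTOR signalling (1.27) and p53 signalling (1.25) the medians were close to that of all pathway genes.

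Pathways of energy, protein and RNA turnover were at the bottom. Oxidative phosphorylation had a median of 0.92 with 3 of 104 genes strong, 2.88%: Ndufb2, Atp6v1g2 (2.05) and Cox7a2l (2.03). Parkinson disease, which shares many of its genes, had 0.92 with 5 of 108. Degradation of valine, leucine and isoleucine had 0.92, RNA degradation 0.93 and cardiac muscle contraction 0.94. RNA degradation held strong members all the same, among them the decapping genes Ddx6 (3.33), Nudt16 (3.26) and Dcp1a (2.85), while Exosc9, of the exosome, stood at 0.47. Proteasome (0.97), with Psme4 (3.22) as its 1 strong gene in 43, spliceosome (0.98) and ribosome (0.996) followed. Over short peaks the proteasome median lay slightly above that of all pathway genes (0.0099). Amphetamine addiction had the same low median, 0.92, but an interval up to 1.91 and 9 of 34 genes strong, led by Fosb and Jun and by the dopamine receptor gene Drd1 (3.96). Phagosome (1.03), lysosome (1.09) and endocytosis (1.10), which microglia use to take up and digest material, also lay below 1.23.

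**Figure D5:**
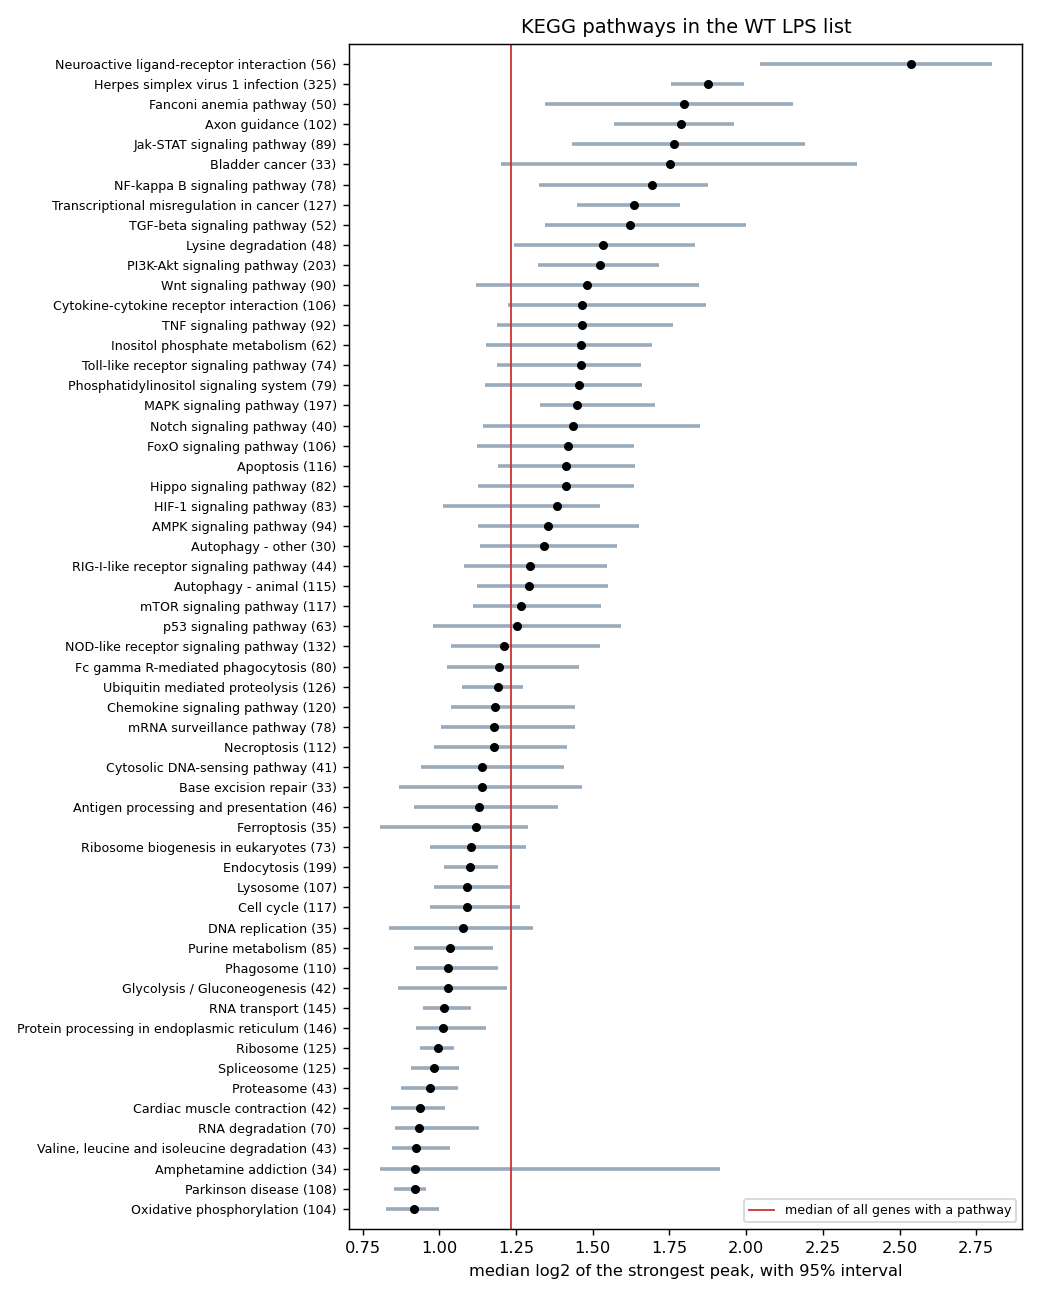
Median log2 of the strongest peak per gene (points) with its 95% interval (bars) for the KEGG pathways described, the number of genes in parentheses and the median of all genes with a pathway in red. Neuroactive ligand-receptor interaction lies furthest right at 2.54, NF-kappa B signalling stands at 1.69, and oxidative phosphorylation, at 0.92, is the lowest.

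Gene Ontology terms in the list, 250 of them with 100 genes or more, gave a similar order, over many of the same genes. G protein-coupled receptor activity was the highest, with a median of 2.61 and 68.3% of 101 genes strong. DNA-binding transcription factor activity followed, at 1.99, with 49.5% of 404 genes strong. The lowest were myelin sheath (0.91), isomerase activity (0.98) and structural constituent of ribosome (1.01).

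Noncoding RNAs were next compared by type. By RefSeq type, 780 long noncoding RNA genes had a median of 1.59 and 37.3% were strong, against 1.34 and 27.3% of 11046 protein-coding genes and 1.12 and 17.9% of 558 pseudogenes. Of 24 long noncoding RNAs listed by name 16 had a peak and 6 a strong one, with a median of 1.61; by the mean over a gene's peaks the group lay slightly below the median of all genes (-0.074). Kcnq1ot1, an imprinted antisense RNA, led at 5.21, though its strongest peak was 100 bases long with an adjusted p of 6.25e-07, followed by Pvt1 (3.44), the paraspeckle RNA Neat1 (3.29) and Xist (3.21), the RNA that silences an X chromosome. Dleu2 (0.92) and Gas5 (0.65) were lowest, and Meg3, Norad and Mir155hg were among the 8 without a peak. The list gives a strand for each peak, but how reads were assigned by strand is not stated, so values of antisense RNAs such as Kcnq1ot1 are uncertain.

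Of the genes with a WT peak, 13 were microRNA genes with a hairpin in RefSeq, and 7 of these were strong, with a median of 2.17. For 5, among them Mir6340 (3.51) and Mir6363 (3.45), the peak kept to the hairpin gene within 5 bases, and for the other 8 it reached beyond it, as at Mir135a-1 (3.81), so that it can belong to the transcript around the hairpin. The mature RNAs of 2 of these genes, picked after their values were seen for their known roles in immune cells and in cell growth, are given with the seed (bases 2 to 8) in capitals, from RefSeq (GRCm38.p6).
mmu-miR-155-5p: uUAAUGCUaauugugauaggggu
mmu-miR-155-3p: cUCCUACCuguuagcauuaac
mmu-miR-29c-3p: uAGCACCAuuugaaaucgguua

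The 3 seeds differ. The Mir155 peak, from 84714138 to 84714237 on chromosome 16, covered both mature arms and had a log2 of 0.91, below the median gene. Its hairpin held none of the 12 consensus pentamers. The Mir29c peak stood at 2.24 and ran from 195037601 to 195037900 on chromosome 1, past the hairpin. Overall 6 of the 13 hairpins held a pentamer, against 58.8% of all 1005 hairpins in the table.

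Cell type markers were checked last. Of 20 microglial and macrophage genes 15 had a peak and 2 of these (13.3%) a strong one, against 28.0% of all genes. The median of the 15 was 0.96 (0.70 to 1.44), against 1.36 over all genes. Cx3cr1 (4.59), Tmem119 (2.03), the receptor tyrosine kinase gene Mertk (1.83) and the CSF1 receptor gene Csf1r (1.44) were the highest. Adgre1 (0.59) and Cd68 (0.47) were the lowest. C1qa, C1qb, C1qc, P2ry12 and Sall1 had none. Of 18 neuronal and neuroblastoma genes 1 had a peak, Tubb3, at 0.89. Astrocyte genes had 1 of 8 (Aldoc, 0.73), oligodendrocyte genes 2 of 9 (Mbp, 4.11, and Cnp, 0.88), endothelial genes 2 of 6 (Vwf, 1.83, and Pecam1, 0.97) and T and B cell genes 0 of 8. Of 31 hepatocyte genes, a list drawn up after the values were seen, 10 had a peak and 8 of these were strong, with a median of 6.52, led by Alb, Ttr, Cyp2e1 and Gc. A peak needs both the transcript and the mark, and in bulk cultures fewer cells of a type and less RNA per cell cannot be told apart.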

How the data were processed

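The members and gene lists were chosen with earlier results of these data known. RNA of 3 IP and 3 input libraries per genotype was measured; per the labels' protocols, poly(A) RNA was fragmented, precipitated with an m6A antibody and made into strand-marked libraries. Per the submitters' processing notes, fastp, FastQC, HISAT2, HOMER, StringTie and edgeR were named, with no role. The peak caller, the build and whether replicates were pooled: not given in the sources used here. Per the file headers, the authors deposited, per peak, the log2 of its enrichment, its p-value and adjusted p-value, a region, a gene and its KEGG and GO terms. Of 12501 genes found by symbol in RefSeq GRCm38.p6, 3564 had the identical start base there. Starts in the list count from 0, since 5098 peaks begin at their gene's start once 1 is added; positions are printed from 1.

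From these values, peaks were counted by region, the strongest peak was taken per gene, and group and pathway medians were set beside those of all genes; called means 4-fold or more. Shares have 95% Wilson intervals and medians 95% order-statistic intervals. No test was run, since 1 list exists for the group. Named genes are the 10 strongest, the 5 strongest per region, the 5 with most peaks, the 4 strongest and 2 weakest of each gene group and pathway, and Batf, with unnamed gene models passed over except among the 10. Any other gene named was picked with its value in view. Pathways described are those of a written list with 30 genes or more and the 6 highest and 6 lowest. The step that takes the strongest peak per gene was checked on simulated data: all 200 genes raised by 1 were recovered. This checks the code only, and the region, group and pathway counts were not simulated. Software was SciPy 1.17.1, numpy 2.4.6, pandas 2.3.3 and matplotlib 3.10.9 under Python 3.11.15. Alternatives were adjusted p of at most 0.001 or 0.05, spans of at most 1000 bases, merged peaks, other fold thresholds, the mean over peaks, other tolerances and smaller pathways.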

Additional observations from a re-analysis of the deposited data

How the results depend on the processing

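The share of peaks in the 3′ UTR was 53.02%, 55.4% at an adjusted p of at most 0.001, 58.0% over spans of at most 1000 bases, 57.8% over peaks of 4-fold or more and 79.8% by gene, a count chosen after seeing the data. The 3′ UTR median went from 0.86 to 0.93 at the stricter p and to 0.75 over short spans, and the median strongest peak from 1.36 to 1.41 and 0.95. Genes at 4-fold or more went from 28.0% to 29.3% at the stricter p, 10.2% over short spans and 12.7% by the mean over peaks; at 2-fold they were 69.9% and at 8-fold 8.67%. With a tolerance of 0 bases 30.2% of 3′ UTR peaks ended at the gene end or beyond it, and with 500 bases 48.3%. Of 15 gene groups 6 had a higher share of strong genes than all genes, and 2 did over short spans. Short spans also turned the difference from the reference median for histone lysine methyltransferases (-0.083), inositol phosphate metabolism (-0.029), lysine degradation (-0.0032), the proteasome pathway (0.0099), TGF-beta (-0.032), TNF (-0.0059) and Toll-like receptor signalling (-0.10) and transcriptional misregulation in cancer (-0.0052). The mean over peaks turned it for the methyltransferases (-0.025), long noncoding RNAs (-0.074) and lysine degradation (-0.0092). The cause was not tested. Of groups and pathways at least 0.2 from their reference, 10 of 12 and 25 of 32 kept their direction under every alternative run for them. Merging overlapping peaks and an adjusted p of at most 0.05 moved no result by more than its interval. No paired analysis was possible because each genotype has 1 list without values per library; leaving out replicates was not run for the same reason. Depth is unknown, and enrichment cannot be set apart from the precision of each ratio.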

Other observations

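Small pathways, with 15 to 29 genes, were looked at after the values were seen, and those that build sugar chains differed among themselves. Of all genes with a pathway 23.5% were at 4-fold or more, with a median of 1.23. Genes can be shared between these pathways, and the part of span in their values was not tested. Heparan sulfate biosynthesis had a median strongest log2 of 2.47 with 11 of 15 genes at 4-fold or more, chondroitin sulfate biosynthesis 2.20 with 10 of 15, mannose type O-glycan biosynthesis 2.22 with 11 of 17 and mucin type O-glycan biosynthesis 2.06 with 8 of 15. Other types of O-glycan biosynthesis stood at 1.43 with 5 of 19 and GPI-anchor biosynthesis at 1.40 with 8 of 24, and N-glycan biosynthesis, a larger pathway, at 1.18 with 8 of 43. The genes of the heparan sulfate, chondroitin sulfate and mucin type pathways mostly encode enzymes of the Golgi that build chains on proteins of the cell surface and matrix. The citrate cycle stood at 0.87 with 3 of 29, biosynthesis of unsaturated fatty acids at 0.82 with 3 of 20 and fatty acid elongation at 0.85 with 2 of 22. Intervals of these medians cover counting only, and for heparan sulfate biosynthesis it ran from 1.99 to 3.09. Protein glycosylation, a larger term, stood at 1.69 with 40.9% of 127 genes at 4-fold or more, against 28.0% of all genes with a peak.

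Several of the strongest genes are known from liver cells. In a list of 31 hepatocyte genes, drawn up after the values were seen, 10 had a WT peak and 8 of these were at 4-fold or more, while 21 had none, among them Apob, Fga, Fgb and Fgg. Alb stood at 8.45, Ttr at 7.99, Cyp2e1 at 7.51, Gc at 7.42, Apoa1 at 6.58 and Hpx at 6.46, with adjusted p values from 6.82e-08 down to 8.29e-24. Hp stood at 3.50 and Apoa2 at 2.06. The knockout list had a peak on 4 of the 31 and on 3 of the 10: Hp at 2.16, Trf at 0.70 and Rbp4 at 0.62. Which library the 7 genes with a WT peak alone came from was not tested, since no value per library was used. The 8 genes of the list named Olfr had a median of 2.47, and 6 of them reached 4-fold or more.

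By chromosome, the share of peaks at 4-fold or more ran from 10.2% to 14.9% on the autosomes and was 6.92% on the X chromosome, whose 1040 peaks had a median of 0.74.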
